A study of Mus musculus with 24 samples.

Results

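Caspases are the proteases that carry out apoptosis, and the apoptosome is the complex that starts them after mitochondria release cytochrome c. The 8 genes described here are 5 caspases (Casp2, Casp6, Casp8, Casp9 and Casp12), the apoptosome scaffold Apaf1, cytochrome c (Cycs) and the caspase inhibitor Xiap. They were taken by symbol from the authors' comparison tables, which list 43626 genes for mouse embryonic fibroblasts. All 8 were found in both fibroblast tables and in the table of podocytes given Adriamycin, and 4 in that of podocytes given vehicle. The study asked how loss of MOF, the histone H4 acetyltransferase encoded by Kat8, changed expression with and without Adriamycin (doxorubicin), a drug that damages DNA through topoisomerase II. The groups were passage 2 mouse embryonic fibroblasts (MEFs), wild type (wt) or Mof knockout (ko), and MPC5 podocytes, a mouse glomerular cell line in the differentiated state at passage 20, with a scramble control or a Mof knockdown. MEFs received 0.1 µg/ml and podocytes 0.25 µg/ml of Adriamycin over 24 h, and vehicle was DMSO. There were 3 samples in each of the 8 groups. The labels state neither how the alleles or the knockdown were made, nor whether a line is 1 clone, nor whether the samples of a group came from separate cultures, and the p-values therefore reflect only how far these samples spread, which may be technical.

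In the extrinsic route, death receptors activate the initiator caspase Casp8. In the intrinsic route, cytochrome c leaves mitochondria and binds Apaf1, which assembles the apoptosome and activates the initiator Casp9. Initiators then cleave executioner caspases, of which Casp6 is one, and Xiap binds and blocks Casp9. Casp2 is an initiator caspase linked to the PIDD complex and DNA damage, and Casp12 is a rodent caspase of the inflammatory group that is found at the endoplasmic reticulum. Anthracyclines are known to start the intrinsic route.

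Each table sets Mof-depleted cells against control cells of the same type and drug condition, and no 2 tables share a sample. The tables hold means and fold changes without single samples, so library depth is unknown and each fold change is given with its standard error (SE) alone. Fold changes below are log2 ratios of Mof-depleted to control cells, and a gene counts as changed at an adjusted p below 0.05. The direction was read from Kat8, which with vehicle was at -1.96 ± 0.20 in MEFs and -1.49 ± 0.15 in podocytes, and with Adriamycin at -1.71 ± 0.16 and -1.24 ± 0.14, in the authors' deposited table of each comparison, so Kat8 does not test the labels. The gene Prss8 overlaps Kat8 on the opposite strand. Of the fibroblast markers, collagen Col1a1 stood at 180211 (mean normalized count) for MEFs with vehicle in the authors' deposited table. The podocyte markers Podxl (2004) and Synpo (2781) were listed in podocytes with vehicle in the authors' deposited table, while the defining marker Nphs1 was not, and since only changed genes are listed there this says nothing of its level.

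The initiator caspases Casp8 (with Adriamycin) and Casp2 (with vehicle) passed the threshold in both MEFs and podocytes, with opposite signs. Of all genes past it in both cell types, 74.5% had opposite signs with Adriamycin and 38.7% with vehicle. With Adriamycin only Casp8 of the 8 genes passed in MEFs, so the signs of the others there are uncertain. Cycs stood at 0.00 in these MEFs, Casp12 at -0.06 ± 0.21, Apaf1 at 0.08 ± 0.08 and Casp6 at 0.12 ± 0.12. Casp8 fell in MEFs, to 76.3% of the control level with vehicle and 67.2% with Adriamycin, and rose 2.23-fold in podocytes with Adriamycin. Casp2 fell in MEFs with vehicle to 75.1% and rose in podocytes, 1.22-fold with vehicle and 2.05-fold with Adriamycin. The highest fold change among the 8 genes was that of Casp12 in podocytes, 2.61-fold with vehicle and 4.44-fold with Adriamycin. Within the apoptosome, Apaf1 rose in MEFs with vehicle and fell in podocytes with Adriamycin, and Cycs fell in podocytes. In counts, 3 of 8 genes changed in MEFs with vehicle, 1 higher and 2 lower, where 37.5% of all tested genes did (17.8% higher and 19.6% lower). In MEFs with Adriamycin 1 of 8 changed, 0 higher and 1 lower, against 32.7% of all genes (16.6% higher and 16.1% lower). In podocytes with vehicle 4 of 8 changed, 3 higher and 1 lower, against 14.3% (8.7% higher and 5.64% lower). In podocytes with Adriamycin 8 of 8 changed, 5 higher and 3 lower, against 55.7% (27.8% higher and 27.9% lower). There the 8 genes had mean counts from 106 to 4554, while listed genes reached down to 2.68. The share among genes of like counts was not computed, and the 8 genes were chosen with earlier results of these data known. The shares in MEFs lie at or below those of all genes, and with Adriamycin more than every second gene tested in podocytes changed.

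**Figure D1:**
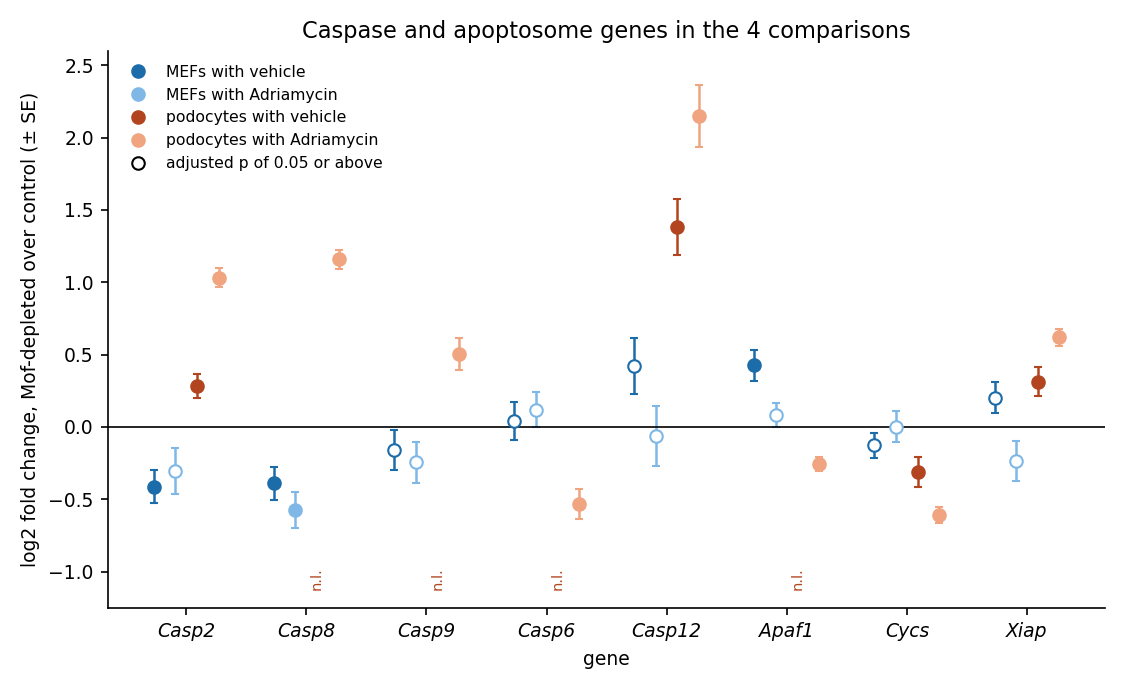
Log2 fold change (Mof-depleted over control, vertical axis) of the 8 genes in the 4 comparisons; points are the authors' estimates and bars their SE, filled points have an adjusted p below 0.05, and n.l. marks a gene not listed in podocytes with vehicle. Casp2, Casp8 and Casp9 lie below 0 in MEFs and above 0 where listed in podocytes, and Casp12 in podocytes is highest, at 1.38 and 2.15.

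The bases before the transcript start are shown for 4 genes: for Casp2 and Casp8, which moved apart between the cell types, for Casp12, the highest, and for Cycs, which fell in podocytes. The sequences are from RefSeq (GRCm38.p6), each 5′ to 3′ on the strand of its gene and ending at the start, with the motif matches in capitals. The windows are chr6:42264735-42264984 (plus strand), chr1:58802252-58802501 (plus), chr9:5345226-5345429 (plus, ending before the first GENCODE exon) and chr6:50566570-50566819 (minus).
Casp2: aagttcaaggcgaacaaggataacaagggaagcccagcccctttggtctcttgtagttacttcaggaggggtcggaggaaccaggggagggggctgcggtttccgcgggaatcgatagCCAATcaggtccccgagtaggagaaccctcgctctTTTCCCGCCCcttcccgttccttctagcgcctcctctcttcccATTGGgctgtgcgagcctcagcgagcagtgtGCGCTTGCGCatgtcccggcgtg
Casp8: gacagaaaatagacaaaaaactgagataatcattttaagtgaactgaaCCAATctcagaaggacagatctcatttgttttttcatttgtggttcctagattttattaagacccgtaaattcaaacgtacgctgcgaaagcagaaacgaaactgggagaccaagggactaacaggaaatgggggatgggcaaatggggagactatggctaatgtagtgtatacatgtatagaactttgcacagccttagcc
Casp12: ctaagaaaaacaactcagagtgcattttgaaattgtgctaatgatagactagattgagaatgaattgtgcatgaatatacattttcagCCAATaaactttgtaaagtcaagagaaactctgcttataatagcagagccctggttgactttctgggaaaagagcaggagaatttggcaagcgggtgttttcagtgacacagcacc
Cycs: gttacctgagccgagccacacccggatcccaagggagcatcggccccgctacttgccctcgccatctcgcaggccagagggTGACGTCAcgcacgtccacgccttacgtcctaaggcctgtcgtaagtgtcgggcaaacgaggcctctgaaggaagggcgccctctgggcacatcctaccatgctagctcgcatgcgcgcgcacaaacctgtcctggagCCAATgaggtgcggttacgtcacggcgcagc
The motifs searched on both strands in 250 bases before the start were the GC box (GGGCGG, in 33% of 32536 promoters), the CCAAT box (CCAAT, 33.8%), the TATA box (TATAAA, 12.3%), an E2F site (TTTCCCGC, 0.901%), the cAMP response element (TGACGTCA, 1.56%), and, by name alone, an NRF1 site (3.77%), an interferon response element (2.98%) and the p53 decamer (7.12%). In Casp2 a GC box overlaps the E2F match, 2 CCAAT boxes flank them, and an NRF1 match begins 23 bases before the start. Cycs holds 1 cAMP response element 169 bases before its start and 1 CCAAT box. Casp8 holds 1 CCAAT box and 5 CpG, at 39.6% GC. Casp12 holds 2 CCAAT matches, of which the one nearer the start lies in the first exon of GENCODE and is not printed, and 1 CpG. All promoters had a median GC of 52.4% and a median of 6 CpG. Casp9 holds 4 GC boxes, Casp6 1 and Apaf1 2, and none of the windows of the 8 genes holds the interferon element or the p53 decamer as searched. The Casp8 window lies in an intron of the GENCODE gene, and 177 bases of the Cycs window lie in an exon of 5430402O13Rik, an antisense gene. A match is a description of letters in the window, and the tables do not measure binding.

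Casp8 (ENSMUSG00000026029, GRCm38 chromosome 1, 58795374 to 58847503, plus strand, protein coding) is the initiator at death receptors. Its log2 fold change in MEFs with vehicle was -0.39 ± 0.11 (adjusted p 0.00272) at a mean count of 803 in the authors' deposited table. With Adriamycin it was at -0.57 ± 0.12 (adjusted p 3.27e-05) at a mean count of 623 in the authors' deposited table. It was thus the only one of the 8 genes that passed the threshold in both MEF comparisons. In podocytes with Adriamycin, Casp8 was at 1.16 ± 0.07 (adjusted p 6.20e-68) at a mean count of 1124 in the authors' deposited table. Casp8 is not listed in podocytes with vehicle, so there its adjusted p was not below 0.05 or it was not tested. In a z test of the 2 fold changes with Adriamycin, the value in podocytes less that in MEFs was 1.73 ± 0.14 (p 1.65e-31 after Bonferroni adjustment over 43626 genes).

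Casp2 (ENSMUSG00000029863, chromosome 6, 42264985 to 42282508, plus strand), the initiator linked to DNA damage, was at -0.41 ± 0.11 in MEFs with vehicle (adjusted p 0.00109) at a mean count of 459 in the authors' deposited table. With Adriamycin its value in MEFs was -0.30 ± 0.16 (adjusted p 0.139, mean count 287) in the authors' deposited table. The 95% interval of that value runs from -0.62 to 0.01, and so holds the value with vehicle. In podocytes Casp2 was at 0.28 ± 0.08 with vehicle (adjusted p 0.00823, mean count 2221) in the authors' deposited table. With Adriamycin it was at 1.03 ± 0.06 (adjusted p 1.72e-57, mean count 1442) in the authors' deposited table. The difference between cell types was 0.70 ± 0.14 with vehicle (Bonferroni-adjusted p 0.0259) and 1.34 ± 0.17 with Adriamycin (5.95e-10). Within podocytes the fold change with Adriamycin exceeded that with vehicle by 0.75 ± 0.11 (Bonferroni-adjusted p 4.40e-08).

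Casp9 (ENSMUSG00000028914, chromosome 4, 141793612 to 141815976, plus strand), the initiator of the apoptosome, did not pass the threshold in MEFs. It was at -0.16 ± 0.14 with vehicle (95% interval -0.43 to 0.11, mean count 281) in the authors' deposited table. In the presence of Adriamycin its value was -0.24 ± 0.14 (-0.52 to 0.03, mean count 296) in the authors' deposited table. In podocytes with Adriamycin Casp9 rose by 0.50 ± 0.11 (adjusted p 1.13e-05, mean count 375) in the authors' deposited table, and it is not listed with vehicle. The difference between cell types with Adriamycin, 0.75 ± 0.18, did not pass (Bonferroni-adjusted p 1). The pancreatic protease genes Cela2a and Ctrc share 94 exonic bases with Casp9 on the opposite strand, and their mean counts in both MEF tables were at most 0.160.

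Casp6 (ENSMUSG00000027997, chromosome 3, 129901425 to 129914103, plus strand) is an executioner that cleaves lamins. Its values in MEFs were near 0, at 0.04 ± 0.13 with vehicle (95% interval -0.21 to 0.29, mean count 307) in the authors' deposited table. Given Adriamycin, MEFs had Casp6 at 0.12 ± 0.12 (-0.12 to 0.36, mean count 401) in the authors' deposited table. In podocytes with Adriamycin Casp6 fell by 0.53 ± 0.10 (adjusted p 1.06e-06, mean count 421), to 69.1% of the control level, in the authors' deposited table. Its difference between cell types there, -0.65 ± 0.16, did not pass (Bonferroni-adjusted p 1).

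Casp12 (ENSMUSG00000025887, chromosome 9, 5345430 to 5373032, plus strand) rose most. In podocytes with vehicle it was at 1.38 ± 0.19 (adjusted p 1.71e-10, mean count 689) in the authors' deposited table. With Adriamycin it was at 2.15 ± 0.21 (adjusted p 7.31e-23) at a mean count of 106, the lowest of the 8 genes in the authors' deposited table. In MEFs with vehicle it was at 0.42 ± 0.19, which missed the threshold (adjusted p 0.0702, mean count 258) in the authors' deposited table. With Adriamycin its value in MEFs was -0.06 ± 0.21 (95% interval -0.47 to 0.35, mean count 142) in the authors' deposited table. The difference between cell types was 2.22 ± 0.30 with Adriamycin (Bonferroni-adjusted p 5.77e-09) and 0.96 ± 0.27 with vehicle (Bonferroni-adjusted p 1). Within podocytes the 2 drug conditions differed by 0.77 ± 0.29, which did not pass (Bonferroni-adjusted p 1).

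Apaf1 (ENSMUSG00000019979, chromosome 10, 90989311 to 91082770, minus strand) is the scaffold of the apoptosome and a known p53 target. In MEFs with vehicle it rose by 0.43 ± 0.11 (adjusted p 0.000332, mean count 1945), 1.34-fold, in the authors' deposited table. Under Adriamycin Apaf1 was at 0.08 ± 0.08 (95% interval -0.08 to 0.24, mean count 3152) in the authors' deposited table. In podocytes with Adriamycin Apaf1 fell by 0.25 ± 0.05 (adjusted p 3.87e-07, mean count 4554), to 83.8% of control, in the authors' deposited table. It is not listed in podocytes with vehicle. The difference between cell types with Adriamycin, -0.34 ± 0.10, did not pass (Bonferroni-adjusted p 1).

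Cycs (ENSMUSG00000063694, chromosome 6, 50562563 to 50566538, minus strand) encodes cytochrome c, which carries electrons in the respiratory chain and activates Apaf1 once in the cytosol. In MEFs it was at -0.13 ± 0.08 with vehicle (95% interval -0.29 to 0.04, mean count 1514) in the authors' deposited table. Given Adriamycin, Cycs was at 0.00 ± 0.10 (-0.20 to 0.21, mean count 1858) in the authors' deposited table. Cycs fell in podocytes, by 0.31 ± 0.10 with vehicle (adjusted p 0.0261, mean count 1796) in the authors' deposited table. With Adriamycin it fell by 0.61 ± 0.05 (adjusted p 2.29e-28, mean count 4118) in the authors' deposited table. The difference between cell types with Adriamycin was -0.61 ± 0.12 (Bonferroni-adjusted p 0.00946). In GENCODE M21, 4 other genes hold a stretch of at least 200 bases that is at least 95% identical to Cycs, the nearest being Gm10053 (99.9% over 946 bases), and none of the other 7 genes has such a copy. The mean count of these copies in MEFs was at most 38.6, and Gm10053, like Cycs, fell in podocytes with Adriamycin, by 0.56 at a mean count of 90.4 in the authors' deposited table, but reads of Cycs and its copies may not be told apart.

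Xiap (ENSMUSG00000025860, chromosome X, 42059679 to 42109656, plus strand) binds and inhibits caspases. It rose in podocytes, by 0.31 ± 0.10 with vehicle (adjusted p 0.0208, mean count 1687) in the authors' deposited table. With Adriamycin it rose by 0.62 ± 0.06 (adjusted p 2.38e-25, mean count 1545), 1.54-fold, in the authors' deposited table. In MEFs Xiap was at 0.20 ± 0.11 with vehicle (adjusted p 0.136, mean count 1451) in the authors' deposited table. With Adriamycin it was at -0.23 ± 0.14 (adjusted p 0.184, mean count 1535) in the authors' deposited table, so neither value passed. The difference between cell types with Adriamycin was 0.85 ± 0.15 (Bonferroni-adjusted p 0.000390).

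Across the cell types with Adriamycin, 5 of the 8 genes differed after Bonferroni adjustment: Casp8, Casp2, Casp12 and Xiap with higher values in podocytes, and Cycs with a lower one. Of all 8842 genes with values in each of these tables, 41.8% differed by the same test, which uses podocyte genes that already passed their own threshold. Of the 3191 genes past the threshold in both tables, 2376 (74.5%) had opposite signs, as Casp8 did. With vehicle 344 of 890 such genes (38.7%) had opposite signs, as Casp2 did. In the test of the difference with vehicle 1 of 4 genes with both values passed, Casp2, against 17.2% of 1897 genes. MEFs carried a knockout and podocytes a knockdown, and they differed in drug dose, so cell type cannot be told apart from these.

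**Figure D2:**
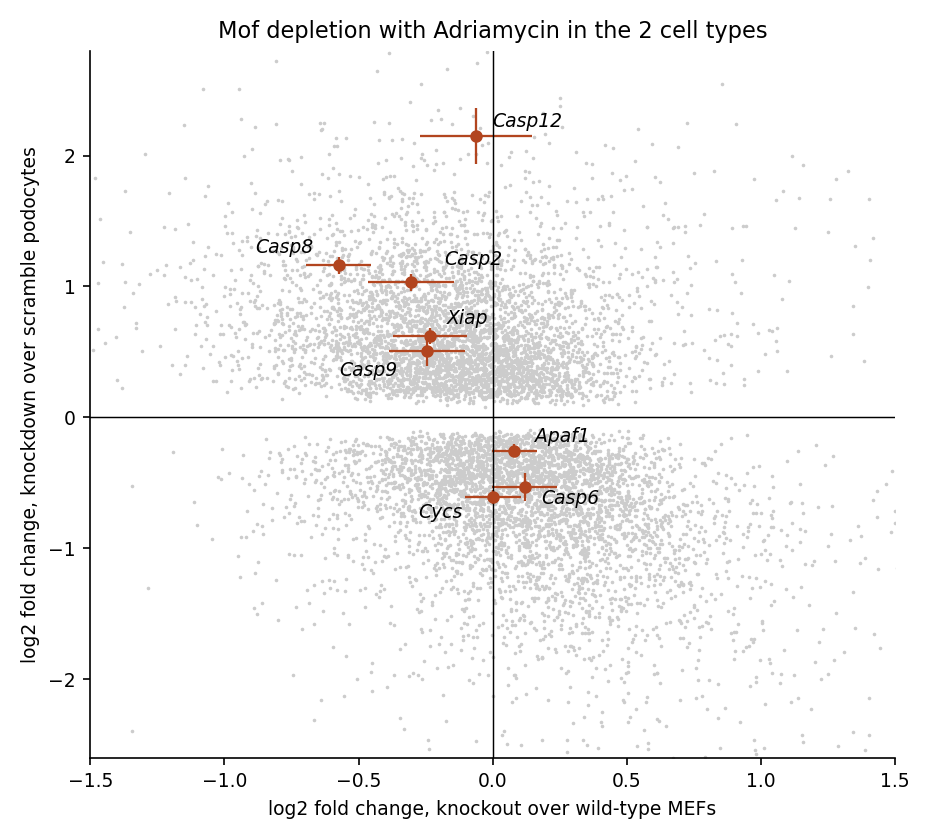
Log2 fold change with Adriamycin in MEFs (horizontal axis) and podocytes (vertical axis) of all genes with values in both tables (grey) and of the 8 genes (red, with the SE of each); the empty band at 0 on the vertical axis is there because only changed genes are listed for podocytes, and points beyond the axes are not drawn. Casp8 lies at -0.57 and 1.16 and Casp12 at -0.06 and 2.15.

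To ask whether Adriamycin altered the effect of the knockout in MEFs, the vehicle fold change was subtracted from the Adriamycin one and tested gene by gene. None of the 8 genes passed (z test with Benjamini-Hochberg adjustment over 13973 genes, of which 7.09% passed), and 2 had an unadjusted p below 0.05. These were Apaf1, at -0.35 ± 0.14 (unadjusted p 0.0106, adjusted p 0.0989), and Xiap, at -0.44 ± 0.18 (unadjusted p 0.0126, adjusted p 0.111). The difference for Casp12 was -0.48 ± 0.28 (95% interval -1.04 to 0.07) and for Casp8 -0.18 ± 0.17 (-0.51 to 0.14). Thus Apaf1 passed its threshold with vehicle alone, and the difference between the drug conditions was not shown. In podocytes the difference could be formed for 4 genes, and 1 of 4 passed, against 39.5% of 1518 genes: beside Casp2 and Casp12, Cycs was at -0.30 ± 0.12 and Xiap at 0.31 ± 0.12, each with a Bonferroni-adjusted p of 1. A gene enters only if it passed in both tables.

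The levels of the 8 genes are given as mean normalized count per kb of exon over both groups of a table. Cycs led in each comparison that lists all 8 genes, at 445 in MEFs with vehicle and 1210 in podocytes with Adriamycin. In MEFs with vehicle Casp8 (278 per kb), Apaf1 (215) and Xiap (153) followed, and Casp12 (67.2), Casp2 (65.0), Casp6 (55.1) and Casp9 (54.0) were lowest. Casp12 and Casp2, and likewise Casp6 and Casp9, lay within 2 errors of each other, where the error of a log2 level was taken from the SE of the fold change divided by 2. Lengths are those of all annotated exons of a gene, and this error leaves out which transcripts are expressed. In MEFs with Adriamycin the order was Cycs (546), Apaf1 (349), Casp8 (215), Xiap (162), Casp6 (71.7), Casp9 (57.0), Casp2 (40.7) and Casp12 (37.0), and only Casp2 and Casp12 lay within 2 errors of each other. In podocytes with Adriamycin Apaf1 (504), Casp8 (388), Casp2 (204) and Xiap (163) came after Cycs, then Casp6 (75.4) and Casp9 (72.1), within 2 errors of each other, and Casp12 (27.5). Of the 4 genes listed in podocytes with vehicle, Cycs was at 528, Casp2 at 315, and Casp12 (179) and Xiap (178) lay within 2 errors of each other. Tables were normalized separately, so a level is compared with others of its own table only.

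**Figure D3:**
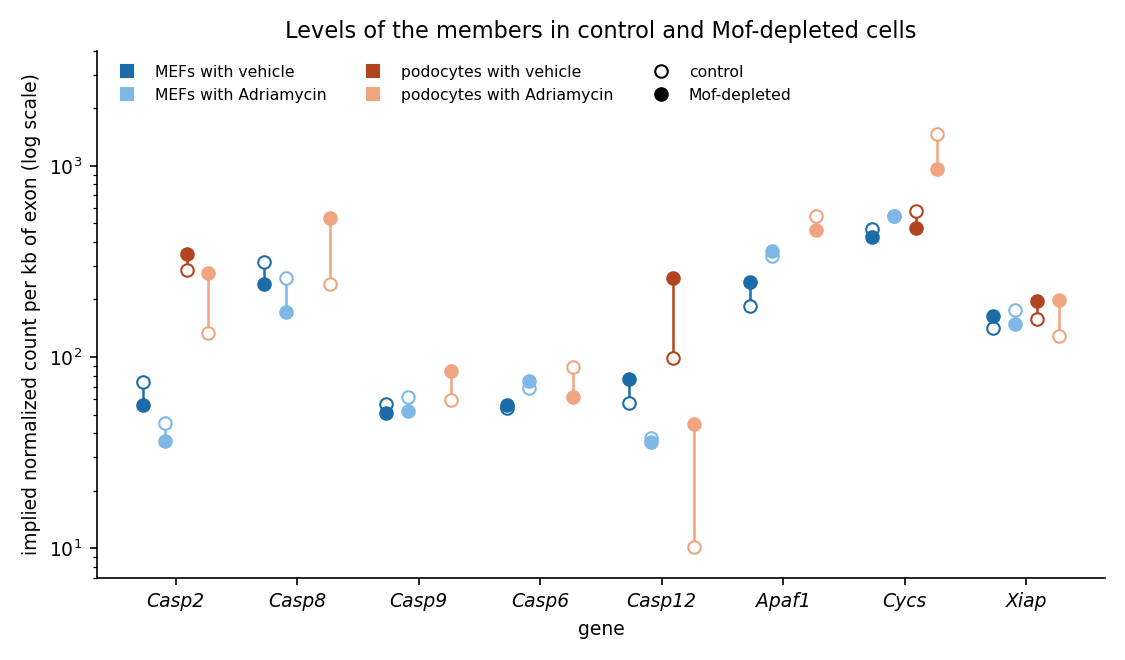
Normalized count per kb of exon (log axis) in control (open) and Mof-depleted (filled) cells, computed from the authors' mean count and fold change with 3 samples a group; a line joins the groups of 1 comparison. The lines of Casp2, Casp8, Casp9, Casp12 and Xiap run upwards from control in podocytes with Adriamycin and those of Cycs, Apaf1 and Casp6 downwards.

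Casp12 lies beside the inflammatory caspase genes Casp1 and Casp4 on chromosome 9, with starts 10.3 kb and 46.9 kb after that of Casp1 for Casp4 and Casp12. Casp1, the protease that matures interleukin-1 beta, rose in podocytes by 0.61 ± 0.15 (vehicle) and 1.03 ± 0.24 (Adriamycin) in the authors' deposited table. In MEFs Casp1 had mean counts of 9.42 and 15.1 and did not pass in the authors' deposited table. Casp4, a sensor of cytosolic lipopolysaccharide, rose by 1.29 ± 0.43 in MEFs with vehicle (adjusted p 0.00984, mean count 23.3) and by 0.64 ± 0.24 in podocytes with Adriamycin (mean count 65.0) in the authors' deposited table. All 3 genes of the cluster rose in podocytes with Adriamycin, where 55.7% of all tested genes changed and 27.8% rose. Casp1 had a mean count of 74.3 there, and Casp1 and Casp4 were added after seeing values. Casp8 lies 83.9 kb from the start of Cflar, which encodes its catalytically inactive relative c-FLIP. In MEFs with vehicle Cflar rose by 0.75 ± 0.12, where Casp8 fell, in the authors' deposited table. With Adriamycin Cflar was at 0.19 ± 0.15 in MEFs, which did not pass, and rose by 0.37 ± 0.05 in podocytes in the authors' deposited table.

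**Figure D4:**
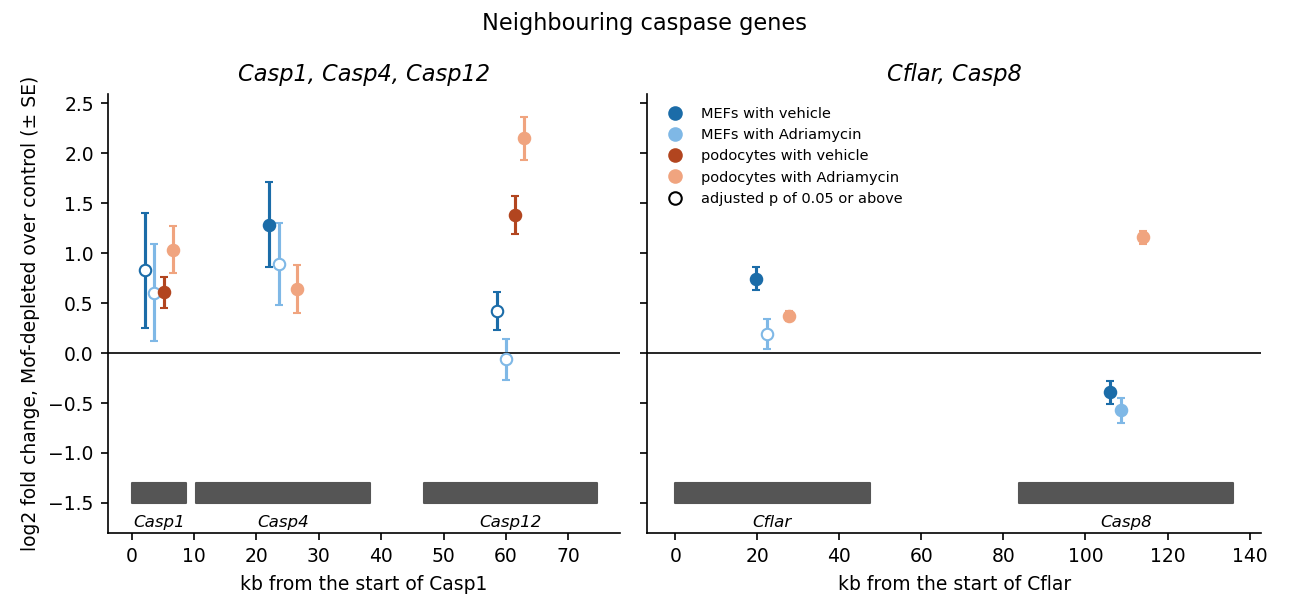
Log2 fold change (± SE, vertical axis) of the neighbouring genes Casp1, Casp4 and Casp12 and of Cflar and Casp8, placed by distance in kb from the first gene's start (grey bars show each gene); filled points have an adjusted p below 0.05. Casp12 is the highest of its cluster in podocytes, and Cflar and Casp8 lie on opposite sides of 0 in MEFs with vehicle.

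The other genes of the apoptosis pathway were taken from 6 lists with 44 genes. With vehicle 14 rose and 6 fell in MEFs and 6 rose and 1 fell in podocytes. With Adriamycin 11 rose and 5 fell in MEFs and 26 rose and 8 fell in podocytes. As shares these are 45.5% (vehicle) and 36.4% (Adriamycin) in MEFs, against 37.5% and 32.7% of all genes, and 15.9% and 77.3% in podocytes, against 14.3% and 55.7%.

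In the death receptor arm 6 of 9 genes rose in MEFs with vehicle and none fell. Of all tested genes 17.8% rose and 19.6% fell there, and 16.6% and 16.1% in MEFs with Adriamycin. In podocytes these shares were 27.8% and 27.9% with Adriamycin, and 8.7% and 5.64% with vehicle. Fas, a death receptor and p53 target, rose 2.64-fold (SE 0.16 on the log2 scale) and Lrdd, which encodes the Casp2 activator PIDD, rose by 1.05 ± 0.14 on the log2 scale in the authors' deposited table. In MEFs with Adriamycin 3 rose, among them the adaptor Tradd (0.46 ± 0.13) and Lrdd (0.30 ± 0.11) in the authors' deposited table. In podocytes none is listed with vehicle, and with Adriamycin 4 rose and 3 fell, among them Ripk1 (0.26 ± 0.09), the receptor Tnfrsf1a (-0.64 ± 0.06) and Fas (-0.39 ± 0.06) in the authors' deposited table. Lrdd rose in MEFs with vehicle, where Casp2 fell.

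Among the inhibitor of apoptosis (IAP) genes and their antagonists, Xaf1, an interferon-stimulated antagonist of Xiap, rose in MEFs by 3.85 ± 0.33 (vehicle) and 1.32 ± 0.25 (Adriamycin) in the authors' deposited table. Birc5 (survivin, which acts in mitosis) fell by 1.33 ± 0.10 and Birc3 by 0.60 ± 0.19 in MEFs with vehicle in the authors' deposited table. With Adriamycin Birc3 fell by 0.72 ± 0.23 and the mitochondrial protease Htra2 rose by 0.31 ± 0.09 in MEFs in the authors' deposited table. In podocytes 6 of 8 genes of this list rose with Adriamycin and none fell, where 27.8% of all tested genes rose and 27.9% fell. Birc5 was at 0.24 ± 0.06 and Birc6 at 0.22 ± 0.06 there in the authors' deposited table. With vehicle Birc2 rose by 0.44 ± 0.10 in podocytes in the authors' deposited table.

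Of apoptosome regulators and other mitochondrial factors, the flavoprotein gene Aifm1 fell in MEFs, by 0.29 ± 0.09 (vehicle) and 0.37 ± 0.12 (Adriamycin), and rose by 0.77 ± 0.09 in podocytes with Adriamycin in the authors' deposited table. Prothymosin (Ptma), an inhibitor of apoptosome formation, rose in MEFs with Adriamycin by 0.59 ± 0.08 and in podocytes by 0.32 ± 0.12 (vehicle) and 0.23 ± 0.04 (Adriamycin) in the authors' deposited table. The mitochondrial nuclease gene Endog fell by 1.14 ± 0.20 in podocytes with Adriamycin in the authors' deposited table.

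Of the caspase substrates, lamin B1 (Lmnb1) fell by 1.05 ± 0.08 and Parp1 by 0.83 ± 0.09 in MEFs with vehicle, while gelsolin (Gsn) rose by 0.52 ± 0.11, in the authors' deposited table. In MEFs with Adriamycin Dffa, the inhibitor of the apoptotic nuclease, fell by 0.94 ± 0.14 and Parp1 by 0.54 ± 0.13 in the authors' deposited table. In podocytes the nuclease gene itself, Dffb, fell by 0.60 ± 0.17 (vehicle) and 0.84 ± 0.06 (Adriamycin) in the authors' deposited table. Lmnb1 rose by 0.82 ± 0.05, Acin1 rose by 0.65 ± 0.05 and Pak2 fell by 0.38 ± 0.04 in podocytes with Adriamycin in the authors' deposited table, and Gsn rose by 0.29 ± 0.09 with vehicle.

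Of the regulators of the mitochondrial pore, 5 of 8 rose in MEFs with vehicle and 4 of 8 with Adriamycin, and none fell. Of all tested genes 17.8% rose and 19.6% fell in MEFs with vehicle, and 16.6% and 16.1% with Adriamycin. Bid, the Casp8 substrate that links the routes, rose by 0.70 ± 0.12 (vehicle) and 0.90 ± 0.13 (Adriamycin) in the authors' deposited table. The antiapoptotic Bcl2l1 rose by 0.60 ± 0.10 in MEFs with vehicle in the authors' deposited table. The p53 target Pmaip1 (NOXA) rose in MEFs by 1.25 ± 0.29 (vehicle) and 0.40 ± 0.09 (Adriamycin), and Bbc3 (PUMA) by 0.92 ± 0.17 with vehicle, in the authors' deposited table. In podocytes Bcl2 rose by 0.59 ± 0.10 and Bbc3 by 0.55 ± 0.12 with vehicle in the authors' deposited table. With Adriamycin Bcl2l1 rose by 0.79 ± 0.06, Bbc3 rose by 0.65 ± 0.07 and Pmaip1 fell by 0.42 ± 0.05 in the authors' deposited table.

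**Figure D5:**
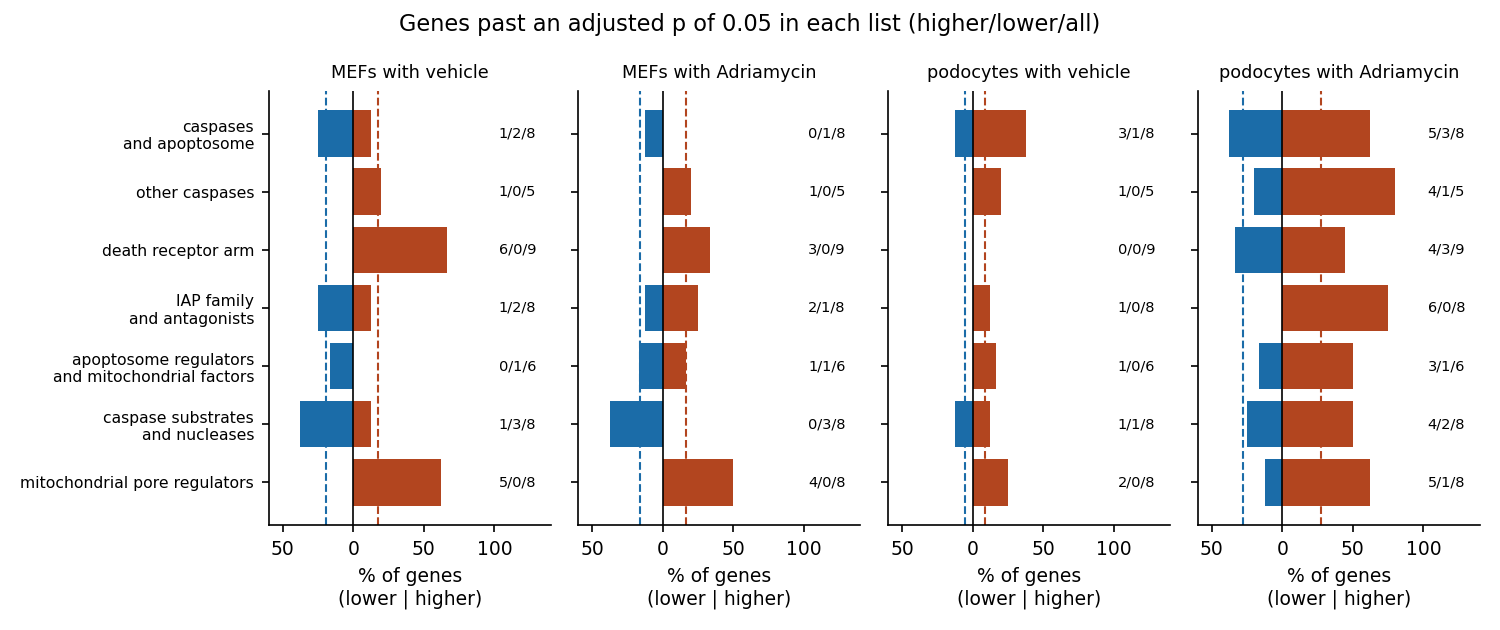
Share of the genes of each list past an adjusted p of 0.05 in each comparison, higher in red to the right and lower in blue to the left; the numbers give higher, lower and all genes, and dashed lines the same shares of all genes tested (17.8% higher and 19.6% lower in MEFs with vehicle). A gene not listed for podocytes counts as not past; all 8 members pass in podocytes with Adriamycin.

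Macrophage and leukocyte markers moved with the genotype in MEFs with vehicle: 8 of 12 rose and none fell, where 17.8% of all tested genes rose and 19.6% fell. The rest did not pass: Csf1r (-0.12 ± 0.25), Cx3cr1 (-0.73 ± 0.34), Ptprc (0.36 ± 0.30) and Fcer1g (0.63 ± 0.28) in the authors' deposited table. With Adriamycin none rose and 1 fell, where 16.6% of all tested genes rose and 16.1% fell. The summed mean count of the markers over both groups was 4127 with vehicle and 5953 with Adriamycin. Lyz2 alone had 1924 and 2624 of these. The drug conditions were normalized separately, so the sums are not compared. The lowest mean counts were those of Ptprc with vehicle (58.1) and Cx3cr1 with Adriamycin (47.5), and no marker was at 0. The part of these cells in the changes of Casp2, Casp8 and Apaf1 was not tested. In bulk RNA a change in the number of cells of a type and one in RNA per cell cannot be told apart. In podocytes with vehicle 1 of the 12 markers is listed, Csf1r, which rose by 1.15 ± 0.21 in the authors' deposited table. In podocytes 3 of the 12 markers are listed with Adriamycin, of which Csf1r rose by 2.65 ± 0.18 and Cd68 and Laptm5 fell in the authors' deposited table. Of all genes tested in podocytes, 8.7% rose and 5.64% fell with vehicle, and 27.8% rose and 27.9% fell with Adriamycin.

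By Euclidean distance over the 4 log2 fold changes, among 1155 genes with values and a mean count of at least 100 in every table, Wwc1 (distance 0.19), Ryk (0.20) and Lrrc1 (0.21) were nearest to Casp2, where the median gene lay at 1.49. Each of them, like Casp2, was below 0 in both MEF tables and above 0 in both podocyte tables, which follows from picking them by these same values. Nearest to Casp12 were Leprel1 (0.43), Arhgap24 (0.52) and Alcam (0.61), against a median of 2.69. These 4 values a gene share all samples with those of the members, and the distances are a description.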

How the data were processed

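RNA of 24 samples in 8 groups of 3 was measured by poly(A) RNA-seq. Per the submitters' processing notes, the build is GRCm38 and the tools named are DESeq2 1.4.1, featureCounts 1.4.5-p1 and TopHat2 2.0.13. Settings, strand included, are not given in the sources used here. Deposited files are 4 comparison tables. The signal, a mean normalized count (counts divided by size factors), is the authors' mean over the samples of a table. The log2 fold change and its SE are the authors' DESeq2 estimates. The score is the authors' Wald statistic, checked to be their ratio. The p-value and adjusted p-value are as deposited by the authors. Among 4948 genes of the MEF vehicle table with a mean count below 1, no log2 fold change exceeded 1.02 in size and no SE 0.685, so low genes are shrunken towards 0; all 8 genes have a mean count above 100. The podocyte tables list only adjusted p-values below 0.05, and 13876 (vehicle) and 17184 (Adriamycin) genes tested were recovered from p over adjusted p.

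Differences between tables were z tests (difference over the root of summed squared SEs, two-sided normal p; Python 3.11.15, scipy 1.17.1), with Benjamini-Hochberg adjustment in MEFs. The tests that use podocytes were added after seeing the data, with Bonferroni over 43626 genes because unlisted genes have no value. The z test was tried on fold changes simulated with the SEs of the MEF comparisons, so its assumptions held by construction. Podocyte SEs were not simulated. Exon lengths, positions and overlaps come from GENCODE M21 (GRCm38), promoters from RefSeq (8 of 8 genes matched), and copies from blastn 2.17.0. Named genes were all 8 genes, Kat8, up to 2 higher and 2 lower genes of smallest adjusted p in each list and table, neighbours and overlapping genes (Cflar, Casp1, Casp4, single markers and values of Pmaip1 and Bbc3 in MEFs with vehicle were added after seeing values), and the 3 genes nearest to Casp2 and Casp12. Some genes that this rule takes are not reported here. The 8 genes and the lists were chosen with earlier results of these data known.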

Additional observations from a re-analysis of the deposited data

Results flagged for a closer look

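The effect of Mof depletion differed between conditions for 5 of the 8 genes by a z test on the authors' deposited table of each condition (Bonferroni adjustment over 43626 genes). With Adriamycin, the log2 fold change in podocytes less that in MEFs was 1.73 for Casp8, 1.34 for Casp2, 2.22 for Casp12, 0.85 for Xiap and -0.61 for Cycs. The same test passed in 41.8% of 8842 genes. With vehicle the difference was 0.70 for Casp2, where 17.2% of 1897 genes passed. Between the drug conditions in podocytes, the value of Casp2 with Adriamycin was higher by 0.75, where 39.5% of 1518 genes passed. No value per sample is given, so single samples that lie apart could not be looked for.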

How the results depend on the processing

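Counts of changed genes among the 8 were recomputed under other settings. With Bonferroni adjustment 0 genes passed in MEFs with vehicle in place of 3 (4 had an unadjusted p below 0.05 in DESeq2) and 1 in podocytes with vehicle in place of 4. At an adjusted p below 0.01, 2 passed in podocytes with vehicle (Casp2 and Casp12). The other 18 recomputed counts lay within 1.5 times the main one, and no direction reversed. These include no filter on low counts, a mean count of at least 100, centring on the median of tested genes (in MEFs 0.01 with vehicle, -0.02 with Adriamycin) and, added after seeing the data, undoing the shrinkage in MEFs, under which Casp12 moved from 0.42 to 0.45 with vehicle. The count filters and the centring had little room to move a call, since all 8 genes have a mean count above 100 and the shifts are small. A stricter threshold cannot reverse a sign. In single genes, 47 recomputed calls kept their side of the threshold and 9 lost it, among them Casp9 in podocytes with Adriamycin under Bonferroni. Leaving out a replicate was not run, since no value per sample is given, and the podocyte tables could not be centred, since they list changed genes only. No paired analysis was possible because the columns carry no sample. The precision of each gene is its SE, from 0.05 to 0.21 among the 8 genes.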

Other observations

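Mean normalized counts over both genotypes are given here side by side for the drug conditions of a cell type, with no comparison, because each table was normalized on its own. In MEFs the authors' deposited table gave Apaf1 a mean count of 1945 with vehicle and 3152 with Adriamycin. Casp2 had 459 and 287, Casp12 258 and 142, Casp6 307 and 401, Casp9 281 and 296, and Xiap 1451 and 1535. The mean counts of all genes summed to 2.11e+07 in both MEF tables. In podocytes the authors' deposited table gave Casp12 a mean count of 689 with vehicle and 106 with Adriamycin, Casp2 2221 and 1442, Cycs 1796 and 4118, and Xiap 1687 and 1545, and the other 4 genes are not listed with vehicle. Computed from these means and fold changes, Casp12 stood at 381 in scramble and 996 in knockdown podocytes with vehicle, and at 38.8 and 172 with Adriamycin.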
